A study of Mus musculus with 6 samples.

Results

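The genes described here are 8 of the 30315 genes in the table: Srebf1, Srebf2, Scap, Insig1, Insig2, Stard4, Abca1 and Abcg1, taken by name as the regulators of the sterol regulatory element-binding proteins (SREBPs) and the carriers of cellular cholesterol. All 8 had a mean of at least 1 FPKM over the 6 libraries and were tested. RNA-Seq had been performed on primary renal tubular epithelial cells (TECs) of C57BL/6 mice, which line the kidney tubule and were cultured after isolation. One group, siSox9, received a single small interfering RNA against the transcription factor Sox9 and the other, siNC, a negative control siRNA, with 3 libraries in each group. Both groups were transfected 12 h before hypoxia/reoxygenation (H/R), an in vitro substitute for ischemia-reperfusion injury with 6 h at 1.0% oxygen without glucose and 18 h of reoxygenation, so that no library came from uninjured cells. The comparison asks how the genes of sterol feedback and of sterol efflux stood in injured cells with less Sox9. The labels do not say whether the 3 libraries of a group came from separate animals or cultures, and p-values measure only the spread between these libraries, which may be technical.

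Cells keep their cholesterol constant by balancing synthesis and uptake against export. SREBP-2, encoded by Srebf2, and SREBP-1, encoded by Srebf1, are made as membrane proteins of the endoplasmic reticulum and are bound there by the escort protein SCAP. When sterols are scarce, SCAP carries them to the Golgi, where the proteases encoded by Mbtps1 and Mbtps2 release the part that enters the nucleus and switches on the genes of cholesterol synthesis and uptake. When sterols are plentiful, INSIG-1 and INSIG-2 hold SCAP back, and Insig1 is itself a target of SREBP, which makes it a feedback gene. The opposite arm is run by the liver X receptors (LXRs), which bind oxysterols and raise Abca1 and Abcg1, the transporters that pass cholesterol to apolipoprotein A-I and to HDL. Stard4 encodes a soluble sterol carrier that moves cholesterol between membranes and is also a known target of SREBP-2.

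The control regions behind these arms can be read from the promoter sequences in RefSeq (GRCm38.p6), which held windows for 6 of the 8 genes. The 250 bases before the start site were searched on both strands for TCACNCCA, a core of the sterol regulatory element (SRE) to which SREBPs bind. This was found in 3.67% of all 32851 windows of the same length. The motifs here and below were chosen after the promoters had been read, so a match set beside such a share is not a test. Srebf2 holds it, as does the comparison gene Hmgcs1, which makes HMG-CoA in cholesterol synthesis. They are shown because they place an SRE core on the factor itself and on an enzyme it is known to drive, with the core in capitals. The Srebf2 stretch is chr15:82147019-82147180 (+ strand) and the Hmgcs1 stretch is chr13:119690101-119690350 (+ strand).
Srebf2: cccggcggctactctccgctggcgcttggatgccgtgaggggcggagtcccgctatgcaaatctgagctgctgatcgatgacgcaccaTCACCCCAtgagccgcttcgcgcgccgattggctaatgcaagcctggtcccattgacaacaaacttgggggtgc
Hmgcs1: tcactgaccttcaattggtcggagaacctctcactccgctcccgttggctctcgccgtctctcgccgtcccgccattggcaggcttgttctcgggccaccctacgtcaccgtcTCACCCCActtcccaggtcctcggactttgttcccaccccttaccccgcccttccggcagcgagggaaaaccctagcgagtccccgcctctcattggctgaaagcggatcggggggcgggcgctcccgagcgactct

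Insig1, the gene with the largest rise of the 8, holds no TCACNCCA in its window. Its stretch at chr5:28071162-28071362 (+ strand) is shown because it holds CACGTG, an E-box, in capitals. An E-box is found in 6.02% of all windows and is a palindrome that many helix-loop-helix factors can bind. It is in 3 of the 6 genes with a window, since Scap and Abca1 hold it too, and in 6.86% of all genes with a window. The match of Scap lies past the start that GENCODE M21 gives for that gene.
Insig1: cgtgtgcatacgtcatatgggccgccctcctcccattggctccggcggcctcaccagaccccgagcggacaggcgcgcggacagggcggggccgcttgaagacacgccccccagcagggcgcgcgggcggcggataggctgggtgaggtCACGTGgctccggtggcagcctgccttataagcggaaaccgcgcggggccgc

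The LXR arm has its own letters, GGTNA repeated in the same direction with 5 bases between, which occurs in 0.621% of all windows. It was found in Abca1 (chr4:53159896-53160145, - strand) and before 1 of the 3 RefSeq starts of Srebf1 (chr11:60210472-60210721, - strand), both on the strand opposite to the one printed, with the whole match in capitals. These stretches are shown because an efflux gene and an SREBP gene share a repeat of the kind that LXRs bind.
Abca1: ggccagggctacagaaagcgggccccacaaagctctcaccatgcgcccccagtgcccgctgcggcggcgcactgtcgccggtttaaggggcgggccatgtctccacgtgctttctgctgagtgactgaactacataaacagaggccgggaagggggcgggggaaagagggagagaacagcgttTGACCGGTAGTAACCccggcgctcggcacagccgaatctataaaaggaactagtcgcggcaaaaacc
Srebf1: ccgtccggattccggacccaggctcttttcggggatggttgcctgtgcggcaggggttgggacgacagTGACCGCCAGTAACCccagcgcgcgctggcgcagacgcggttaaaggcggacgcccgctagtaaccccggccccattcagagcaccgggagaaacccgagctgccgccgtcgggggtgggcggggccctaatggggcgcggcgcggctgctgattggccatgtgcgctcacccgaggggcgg

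A further link between the arms lies inside Srebf2 itself, since an intron of that gene carries miR-33, a microRNA known to act on Abca1. Its mature sequence, mmu-miR-33-5p (chr15:82198127-82198147, + strand), is shown with the seed in capitals.
mmu-miR-33-5p: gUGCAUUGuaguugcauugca
The seed match CAATGCA occurs 3 times in the longest 3′ UTR that GENCODE M21 gives for Abca1 and 2 times in that of Abcg1, and in none of the other 6 genes. Of 10712 tested genes with an annotated 3′ UTR, 7.31% hold at least 1 match and 0.644% hold 2 or more. The matches of each transporter lie close together, and the first and second of Abca1 overlap, so they are not separate sites. They are printed in capitals, for Abca1 at chr4:53033784-53033811 (- strand) and for Abcg1 at chr17:31114999-31115021 (+ strand).
Abca1 site: attCAATGCAATGCActtCAATGCAacg
Abcg1 site: acgCAATGCAacgCAATGCAgac
MicroRNA levels were not measured in these libraries. The 783 tested genes with a match had a median difference of -0.02 between siSox9 and siNC on the log2(FPKM + 1) scale, against -0.02 for the genes without one.

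The recovered depth was 23893197 to 25725741 reads a library. The target of the knockdown, Sox9, was at 8.61 to 9.07 FPKM in the siSox9 libraries and at 25.6 to 26.5 FPKM in the siNC libraries. Across the 12009 genes tested, limma called 3650 genes at an adjusted p under 0.05, which is 30.4%, with 1532 higher (12.8%) and 2118 lower (17.6%) with siSox9. Centring each library on its own median gave 1959 higher and 1765 lower genes instead. Genes whose 3 siSox9 libraries did not overlap the 3 siNC libraries made up 46.3% of those tested, so a gap between the groups was common. The epithelial markers Epcam, Cdh1, Cdh16, Krt8, Krt18 and Pax8 were all expressed, with summed levels of 3755 to 3913 FPKM with siSox9 and 3592 to 3794 with siNC, and 1 of the 6, Cdh16, was higher with siSox9. Of 4 proximal tubule markers only Lrp2 reached a mean of 1 FPKM, and the sum of the 4 was 2.65 to 3.31 FPKM. Macrophage markers were present, with Lyz2 at a mean of 71.9 FPKM and C1qa at 42.0 FPKM with siNC. The summed level of the 6 macrophage markers was 138 to 155 FPKM with siSox9 and 135 to 139 with siNC, and 1 of the 5 tested, Lyz2, was higher. The summed fibroblast markers were 6.24 to 7.76 FPKM with siSox9 and 7.72 to 8.79 with siNC, with no call in the 1 tested. The summed endothelial markers were lower with siSox9 without overlap, at 2.76 to 2.99 FPKM against 3.16 to 4.01, in the same direction as Abca1. The 1 endothelial marker tested, Cdh5, overlapped between the groups and did not pass. Emcn, under the minimum, was at 0.614 times its siNC mean (adjusted p = 0.0331 from limma without the filter). Pecam1, also under the minimum, was at 0.843 times. Kdr, under the minimum too, went the other way at 1.22 times with overlapping groups, so the markers did not all move together. Podocyte markers summed to at most 0.0266 FPKM, with Nphs1 at 0 in all libraries. The part of these cells in the values below was not tested. In bulk RNA, fewer cells of a type and less RNA per cell cannot be told apart.

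Among the 8 genes, 2 were higher with siSox9, 1 was lower and 5 did not pass the test, which is 37.5% called against 30.4% of all genes tested. The feedback gene Insig1 rose the most, to 1.55 times the siNC mean, and the sterol carrier Stard4 rose to 1.40 times. The efflux transporter Abca1 was lower, at 0.716 times the siNC mean, by a call that 9 of 14 alternatives did not keep. Neither SREBP gene, nor Scap, Insig2 or Abcg1, differed past the threshold. The median difference of the 8 genes was 0.00 on the log2(FPKM + 1) scale, against -0.01 for all genes tested.

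**Figure D1:**
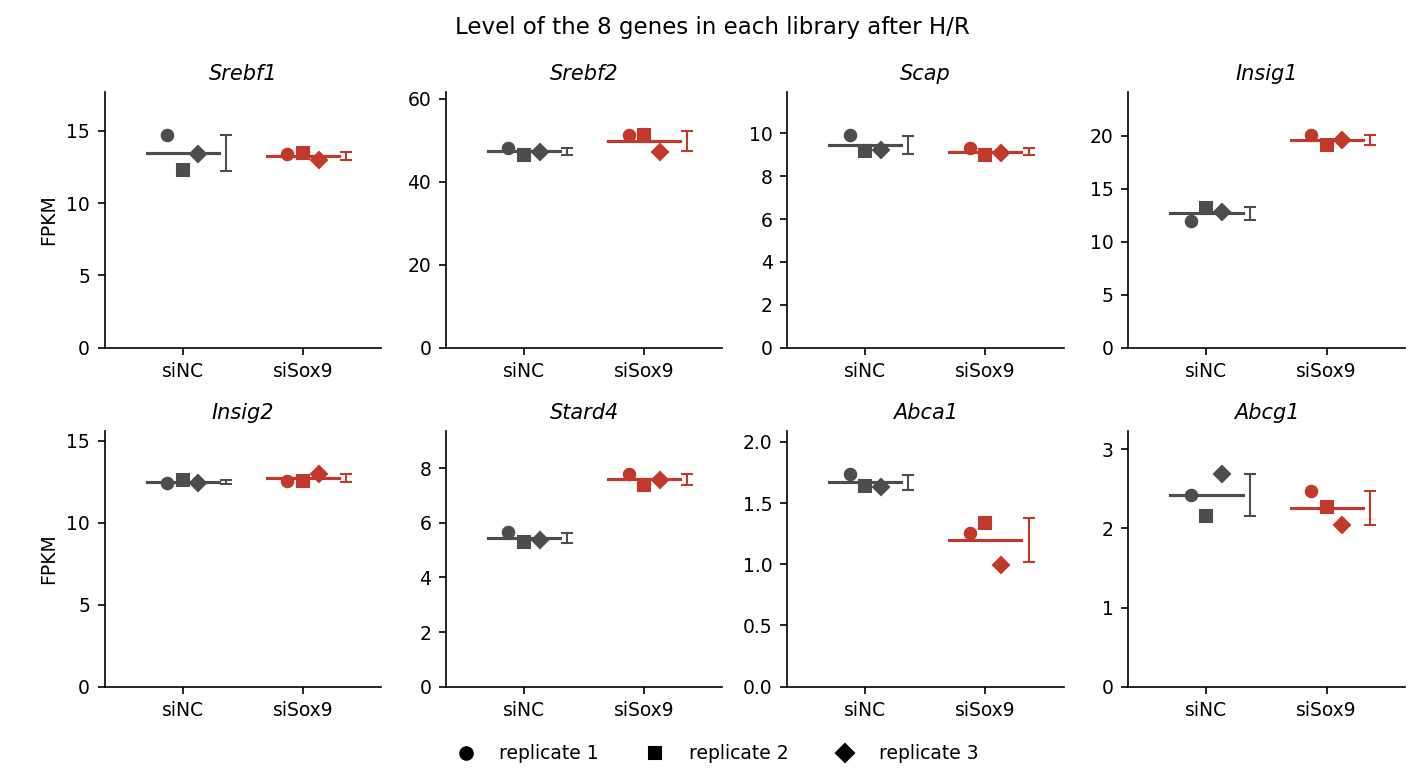
FPKM of each of the 8 genes (vertical axes, from 0) in the 3 siNC and 3 siSox9 libraries, with 1 symbol a replicate, a line at the group mean and a bar of 1 SD beside it. Insig1 and Stard4 stand higher in each siSox9 library and Abca1 stands lower, while the groups of the other 5 genes overlap.

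Srebf2, the factor of cholesterol synthesis, was the most abundant of the 8 genes. It had 51.3, 51.4 and 47.1 FPKM in siSox9 replicates 1, 2 and 3 and 48.1, 46.5 and 47.3 FPKM in siNC replicates 1, 2 and 3. Replicates 1 and 2 of siSox9 lay above every siNC library and replicate 3 lay among them. The difference was 0.08 on the log2(FPKM + 1) scale (95% confidence interval -0.02 to 0.17), and limma's adjusted p was 0.199. Without siSox9 replicate 3 it was 0.12 with an adjusted p of 0.044 from limma, so that 1 library decided the call. The file's model of Srebf2 (ENSMUSG00000022463, chromosome 15 from 82147266 to 82205376) differs from the one in GENCODE M21, and the length used to turn its FPKM back into reads was inferred from the values.

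Srebf1 encodes both SREBP-1a and SREBP-1c, the latter known as the factor of fatty acid synthesis, and the table gives 1 value for both. It (ENSMUSG00000020538, chromosome 11 from 60199089 to 60222581) had 13.4, 13.5 and 13.0 FPKM with siSox9 and 14.7, 12.3 and 13.4 FPKM with siNC. The siNC libraries spread on both sides of the siSox9 libraries. The difference was -0.02 (95% confidence interval -0.16 to 0.13, limma's adjusted p = 0.865), and its sign turned in 4 of 15 alternatives, none of which passed the threshold. Srebf2 had 3.26 to 3.84 times the FPKM of Srebf1, with overlapping ranges in the 2 groups.

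Scap, the escort of both factors (ENSMUSG00000032485, chromosome 9 from 110333288 to 110384950), had 9.32, 8.99 and 9.11 FPKM with siSox9 and 9.95, 9.16 and 9.25 FPKM with siNC. The groups overlapped, and the difference was -0.04 on the log2(FPKM + 1) scale (95% confidence interval -0.14 to 0.05, limma's adjusted p = 0.459). Of its annotated exon bases, 13.2% also belong to a gene on the other strand, and whether the counting used strand is not given in the sources used here.

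Insig1, which retains SCAP and is degraded when sterols are low, rose past the spread between libraries. Insig1 (ENSMUSG00000045294, chromosome 5 from 28071363 to 28078662) had 20.13, 19.17 and 19.65 FPKM in siSox9 replicates 1, 2 and 3 and 11.99, 13.21 and 12.83 FPKM in siNC replicates 1, 2 and 3. The lowest siSox9 library stood well above the highest siNC library. The recovered reads behind these values numbered 1602, 1506 and 1452 with siSox9 and 921, 987 and 986 with siNC. The mean was 19.65 ± 0.480 FPKM with siSox9 and 12.68 ± 0.624 FPKM with siNC (SD, n = 3 each), a difference of 0.60 on the log2(FPKM + 1) scale (standard error 0.04, 95% confidence interval 0.50 to 0.70, limma's adjusted p = 0.000167). In an exact two-sided permutation test of the 6 libraries p was 0.1, which is the smallest that 3 against 3 allow. The call held in all 15 alternatives, with differences of 0.56 to 0.66.

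Insig2, the second retention protein beside INSIG-1, is encoded by a gene that SREBP does not drive in the same way. Insig2 (ENSMUSG00000003721, chromosome 1 from 121304353 to 121332589) had 12.57, 12.56 and 13.00 FPKM with siSox9 and 12.41, 12.63 and 12.43 FPKM with siNC. Its 6 libraries lay within a narrow range, and the difference was 0.02 on the log2(FPKM + 1) scale (95% confidence interval -0.05 to 0.10, limma's adjusted p = 0.606). Both genes were thus at about the same FPKM with siNC, where Insig1 had 0.967, 1.05 and 1.03 times the FPKM of Insig2 in replicates 1, 2 and 3. With siSox9 it had 1.60, 1.53 and 1.51 times the FPKM of Insig2. The lowest siSox9 ratio exceeded the highest siNC ratio, and the confidence intervals of the differences of Insig1 and Insig2 do not meet.

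**Figure D2:**
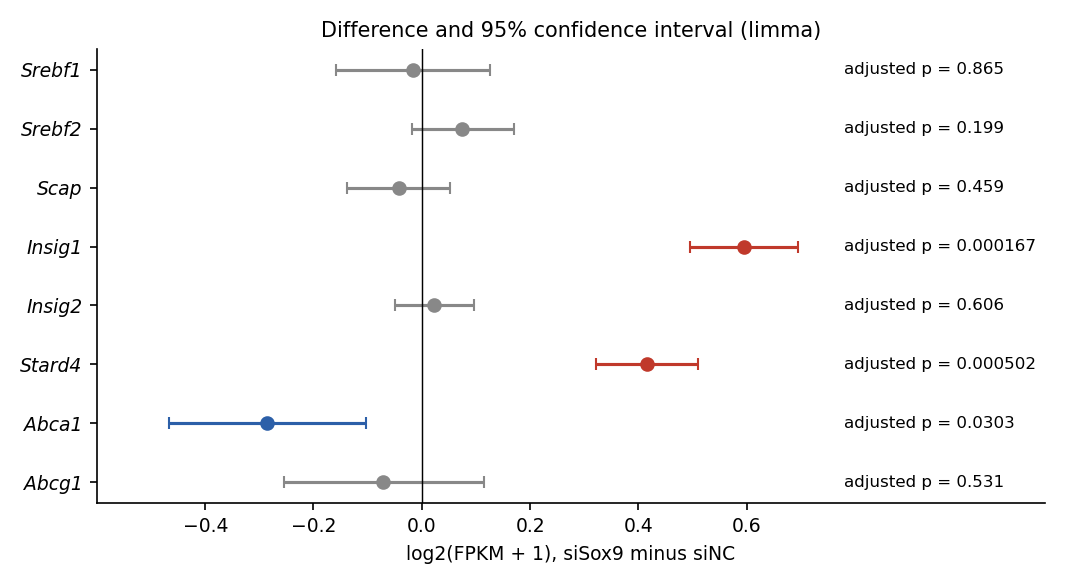
Difference of log2(FPKM + 1), siSox9 minus siNC (horizontal axis), for each of the 8 genes, with limma's 95% confidence interval as the bar and its adjusted p at the right. The intervals of Insig1 (0.50 to 0.70), Stard4 (0.32 to 0.51) and Abca1 (-0.47 to -0.10) leave out 0, and the other 5 include it.

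Stard4, the soluble sterol carrier, rose as well. Stard4 (ENSMUSG00000024378) had 7.80, 7.40 and 7.57 FPKM in siSox9 replicates 1, 2 and 3 and 5.65, 5.29 and 5.37 FPKM in siNC replicates 1, 2 and 3. Each siSox9 library lay above each siNC library. The mean was 7.59 ± 0.204 FPKM with siSox9 and 5.44 ± 0.190 FPKM with siNC (SD, n = 3 each), from 1010 to 1121 and 714 to 784 reads. The difference was 0.42 on the log2(FPKM + 1) scale (standard error 0.04, limma's adjusted p = 0.000502), and limma called it in all 15 alternatives, between 0.40 and 0.50. Since 1 FPKM was added before the logarithm, these differences understate the change of genes at such levels.

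Abca1, the transporter that loads cholesterol onto apolipoprotein A-I, was the least abundant of the 8 genes. Abca1 (ENSMUSG00000015243, chromosome 4 from 53030787 to 53159895) had 1.26, 1.34 and 0.998 FPKM in siSox9 replicates 1, 2 and 3 and 1.74, 1.64 and 1.63 FPKM in siNC replicates 1, 2 and 3. All siSox9 libraries lay below all siNC libraries, and replicate 3 of siSox9 was the lowest. The reads behind these values numbered 335, 352 and 247 with siSox9 and 448, 410 and 421 with siNC. The difference was -0.28 on the log2(FPKM + 1) scale (standard error 0.08, 95% confidence interval -0.47 to -0.10, limma's adjusted p = 0.0303). All 14 alternatives that tested Abca1 kept the direction, but 9 of them lost the call, with adjusted p up to 0.0949 from limma, and leaving out any 1 library except siSox9 replicate 2 was enough. With limma voom on the recovered reads, which adds no FPKM before the logarithm, it was -0.47 with an adjusted p of 0.00149.

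Abcg1, the transporter that passes cholesterol to HDL, did not follow Abca1 past the threshold. Abcg1 (ENSMUSG00000024030, chromosome 17 from 31057698 to 31115777) had 2.47, 2.27 and 2.04 FPKM with siSox9 and 2.42, 2.16 and 2.69 FPKM with siNC. The groups overlapped, and the difference was -0.07 on the log2(FPKM + 1) scale (95% confidence interval -0.25 to 0.11, limma's adjusted p = 0.531). The intervals of both transporters overlap in part, which is not a test of their difference. Whether Abca1 and Abcg1 differ in their response was not tested. Like that of Srebf2, the file's model of Abcg1 differs from GENCODE M21, and the smallest length that fits its values, 2033 bases, gives 99 to 136 reads a library as a minimum.

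The feedback genes and the efflux genes were then set side by side within each library. The mean log2(FPKM + 1) of Srebf2, Insig1 and Stard4 was 4.42, 4.37 and 4.35 in siSox9 replicates 1, 2 and 3 and 4.02 in each siNC library. The mean of Abca1 and Abcg1 was 1.48, 1.47 and 1.30 with siSox9 and 1.61, 1.53 and 1.64 with siNC. The gap between both means was thus 2.93, 2.90 and 3.05 with siSox9 and 2.40, 2.49 and 2.38 with siNC. The gap restates the single genes, since Insig1 and Stard4 carry the feedback mean and Abca1, whose call many alternatives lost, carries the efflux mean. Srebf1, Scap, Insig2 and the efflux relative Abca7 are not part of it. The FPKM of Stard4 was 6.21, 5.53 and 7.59 times that of Abca1 with siSox9, and 3.25, 3.23 and 3.28 times with siNC.

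**Figure D3:**
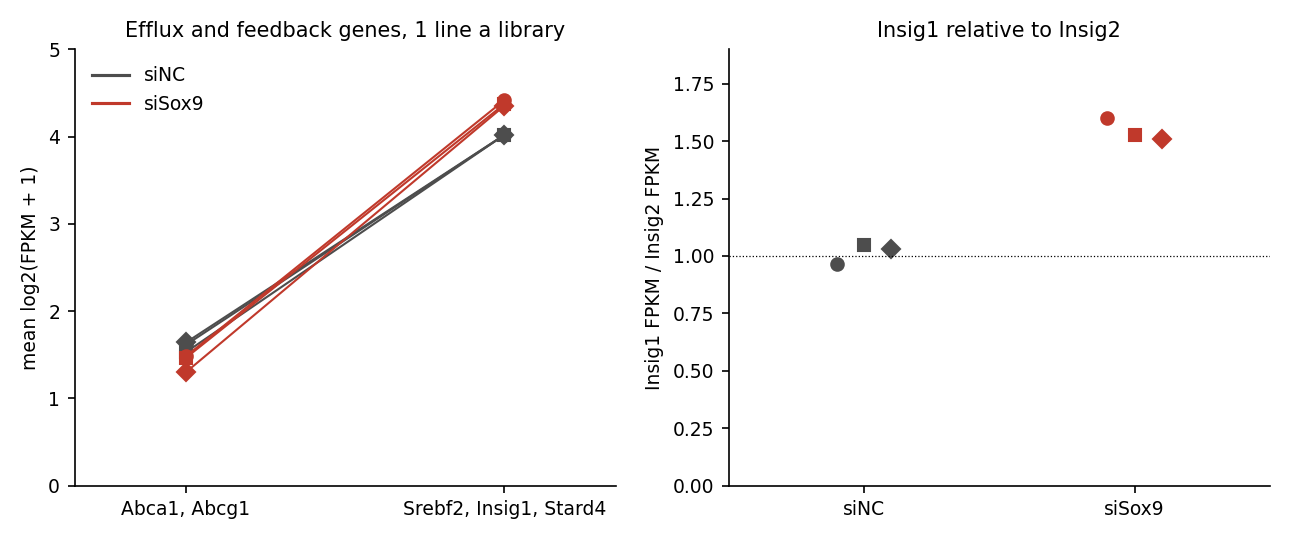
Left, the mean log2(FPKM + 1) of the efflux genes and of the feedback genes, joined by 1 line for each library. Right, the FPKM of Insig1 divided by that of Insig2 in each library, with a dotted line at 1. The siSox9 lines rise from 1.30 to 1.48 up to 4.35 to 4.42 and the siNC lines from 1.53 to 1.64 up to 4.02, and the ratio is 1.51 to 1.60 with siSox9 and 0.967 to 1.05 with siNC.

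FPKM divides by exon length, so levels can be ordered across the genes as far as the gene models hold. The models of Srebf2 and Abcg1 differ from GENCODE M21 and their lengths were only inferred, so their places are less certain. Scap shares exon bases with a gene on the other strand. With siNC the order of mean FPKM was Srebf2 (47.3), Srebf1 (13.5), Insig1 (12.7), Insig2 (12.5), Scap (9.45), Stard4 (5.44), Abcg1 (2.42) and Abca1 (1.67). The ranges of Srebf1 and Insig1 overlapped there, as did those of Insig1 and Insig2, and the other neighbours were apart. With siSox9 Insig1 had moved to the second place, above Srebf1, and did not overlap it, while Srebf1 and Insig2 overlapped. The order of the remaining genes was the same in both groups.

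The machinery that moves and cleaves SREBP was read from a list of 18 other genes, of which 17 were tested. Of these, 2 were higher, 5 were lower and 10 did not pass, so that 41.2% were called against 30.4% of all genes tested, with a median difference of -0.02. The site-1 protease gene Mbtps1 had 14.5 ± 0.117 FPKM with siSox9 and 13.6 ± 0.528 with siNC (SD, n = 3 each), a difference of 0.09 (limma's adjusted p = 0.097), and the site-2 protease gene Mbtps2 one of -0.02 (adjusted p = 0.802). The cargo adaptors of the COPII coat, which packs SCAP and SREBP into vesicles, moved in both directions. Sec24a fell by 0.26 and Sec24d by 0.23 on the log2 scale, whereas Sec24c rose by 0.14 and Sec23b, of the inner coat, by 0.12 (limma's adjusted p between 0.0029 for Sec24a and 0.0214 for Sec23b). The call of Sec24c was lost with TPM scaling. That of Sec23b was lost with TPM scaling and also without siNC replicate 2, siNC replicate 3, siSox9 replicate 1 or siSox9 replicate 3, with limma's adjusted p from 0.0529 to 0.0749 in these 5 fits. The other lower genes were Erlin2, Rnf139 and Rnf145, which take part in the turnover of proteins of the endoplasmic reticulum.

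The enzymes of cholesterol synthesis, known as targets of SREBP-2, had the largest share of rises among the 7 lists, with 14 higher, 1 lower and 5 not past the threshold among 20 tested. Their median difference was 0.29, against -0.01 for all genes tested, and 75.0% passed against 30.4%. Fdft1, the squalene synthase, had 23.99 ± 0.339 FPKM with siSox9 and 16.83 ± 0.972 FPKM with siNC (SD, n = 3 each), a difference of 0.49 on the log2(FPKM + 1) scale (standard error 0.04, limma's adjusted p = 0.000415). Hmgcs1, whose SRE core is printed above, differed by 0.34 and Sqle, the squalene epoxidase, by 0.23 (limma's adjusted p of 0.000675 and 0.00768). Ebp, a sterol isomerase, was the 1 enzyme called lower, by -0.14 (adjusted p = 0.026 from limma), and 7 of 15 alternatives lost this call. Windows were held for 15 of the 20 genes, and TCACNCCA was found in 2 of them, Hmgcs1 and Msmo1. In the list of SREBP transport, cleavage and turnover it was found in 4 of 15, Sar1b, Sec24a, Sec24b and Sec24d, of which Sec24a and Sec24d were lower. Of all genes with a window, 4.2% hold TCACNCCA. CCAAT, the box to which NF-Y binds, was found in 14 of the 15 synthesis genes with a window and in 4 of the 6 among the 8. It was also in 12 of 12 genes with a window in the list of sterol transport and storage described below, so it is not particular to the synthesis enzymes. The SREBP transport list had it in 4 of 15, and 37.5% of all genes with a window hold it.

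Of 10 tested genes of lipoprotein uptake, 2 were higher, 3 were lower and 5 did not pass, with a median difference of -0.08. This is 50.0% called, against 30.4% of all genes tested, of which 12.8% were higher and 17.6% lower. The endocytic receptor gene Lrp1 differed by 0.22 (adjusted p = 0.00742 from limma). Scarb1, the HDL receptor, fell by 0.25 on the log2 scale (limma's adjusted p = 0.00546), and Lrp8, a receptor of the same family as Lrp1, was also lower. Mylip, a ubiquitin ligase gene that LXRs switch on, had a difference of -0.14 (limma's adjusted p = 0.136). The lists share members, since Mylip is also in the LXR list below and Scarb1 in that of efflux.

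Genes that move and store cholesterol inside the cell had 2 members higher, 3 lower and 9 not past the threshold among 14 tested, with a median difference of 0.07. The share called, 35.7%, was near the 30.4% of all genes tested. Npc1, the lysosomal membrane protein that lets cholesterol leave the lysosome, had 4.83 ± 0.282 FPKM with siSox9 and 6.91 ± 0.333 FPKM with siNC (SD, n = 3 each), and fell by 0.44 on the log2 scale (standard error 0.05, limma's adjusted p = 0.00115). Its soluble partner Npc2 rose by 0.15 (limma's adjusted p = 0.0115). The sterol carrier gene Osbp rose by 0.18 (limma's adjusted p = 0.0159), a call lost in 5 alternatives. Soat1, which esterifies cholesterol for storage, fell by 0.21 (limma's adjusted p = 0.0173), also with the call lost in 5 alternatives, and Nceh1, which hydrolyses cholesteryl esters, was the other lower gene.

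The LXR genes and their targets other than the transporters were read from a list of 13, of which 8 were tested. Of these, 0 were higher, 1 was lower and 7 did not pass, and 12.5% passed against 30.4% of all genes tested. The lower gene was Arl4c, an LXR target, which fell by 0.18 on the log2 scale (limma's adjusted p = 0.0225), a call lost in 4 alternatives. Nr1h2, which encodes LXRβ, had 27.1 ± 0.517 FPKM with siSox9 and 24.9 ± 0.981 FPKM with siNC (SD, n = 3 each), a difference of 0.12 that lay at the threshold and passed in 4 alternatives. Nr1h3, which encodes LXRα, had 0.525 FPKM with siSox9 and 0.453 FPKM with siNC and was under the minimum for testing. Apoe, the apolipoprotein of the same program, had a difference of -0.01 (limma's adjusted p = 0.876).

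Of 9 genes of efflux, HDL and oxysterols, 3 were tested, and 66.7% of these few were called against 30.4% of all genes tested. Abca7, a relative of Abca1, had 7.87 ± 0.450 FPKM with siSox9 and 5.68 ± 0.0569 FPKM with siNC (SD, n = 3 each), a difference of 0.41 (limma's adjusted p = 0.000845), in the direction opposite to Abca1. Scarb1, the same gene already counted in the uptake list, was the 1 lower gene, and Lcat had 0.08 without passing. Among 13 tested genes of fatty acid synthesis, known as targets of SREBP-1, 4 were higher, 0 lower and 9 did not pass, with a median difference of 0.04. The share called, 30.8%, was about that of all genes tested, 30.4%. Lpin1 differed by 0.29 (limma's adjusted p = 0.0276, lost in 7 alternatives), Acly by 0.20 and Fasn, the fatty acid synthase, by 0.17 (limma's adjusted p of 0.00353 and 0.00903). Me1 was the fourth. Scd1, the stearoyl-CoA desaturase, had 15.9 ± 0.548 FPKM with siSox9 and 15.4 ± 0.227 FPKM with siNC (SD, n = 3 each) and did not pass (limma's adjusted p = 0.432).

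**Figure D4:**
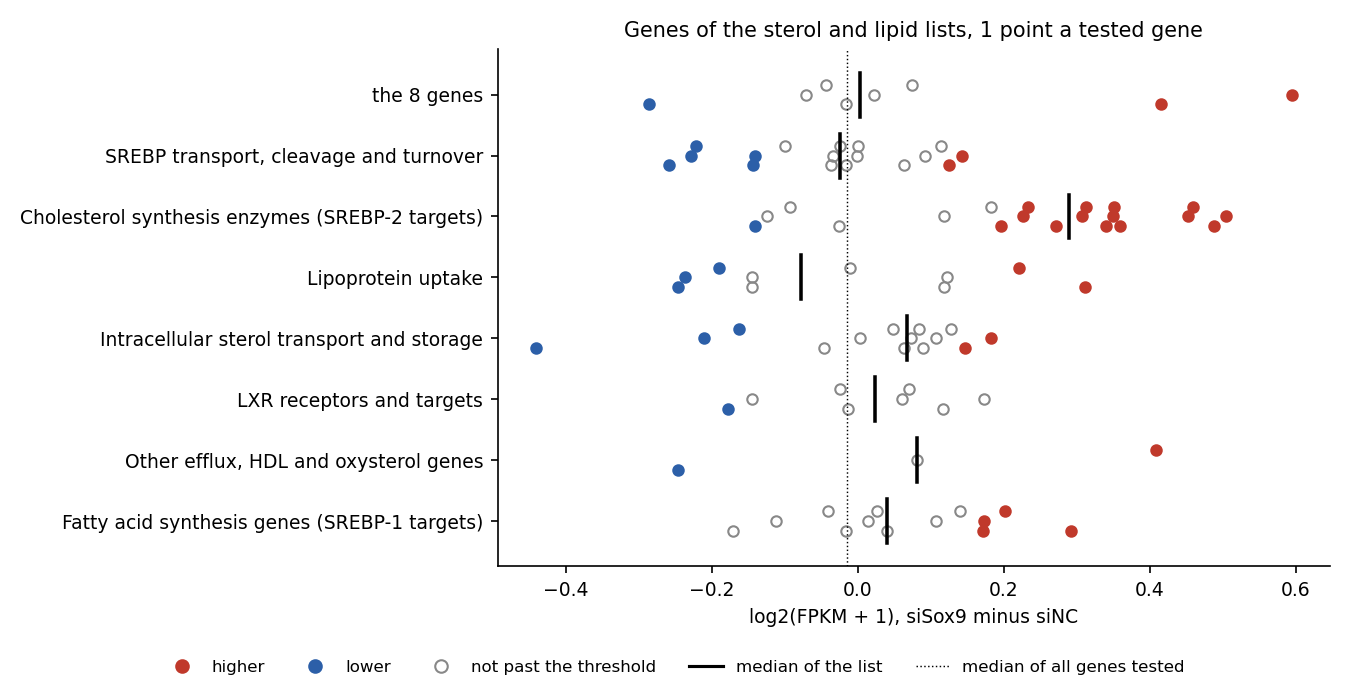
Difference of log2(FPKM + 1), siSox9 minus siNC (horizontal axis), for each tested gene of the 8 and of 7 lists, with filled points past the threshold, a black line at each list's median and a dotted line at the median of all genes tested, -0.01. Most of the cholesterol synthesis enzymes lie to the right around their median of 0.29, while the uptake, transport and LXR lists lie on both sides of 0.

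The genes whose levels followed Insig1 most closely over the 6 libraries were Phtf1, Trpc4ap and Egr1, with Pearson's r of 0.999, 0.998 and 0.997 for log2(FPKM + 1). For Abca1 they were Pde8a, Zfp41 and Dcaf7, with r of 0.997, 0.996 and 0.995. These are the highest values among all tested genes, and the 6 libraries fall into the 2 groups, so r mostly carries the difference between groups. Egr1, an early growth response factor, had 9.73 ± 0.721 FPKM with siSox9 and 4.65 ± 0.364 FPKM with siNC (SD, n = 3 each).

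Because 1 siRNA was used, its own seed was looked for in the genes. The longest 3′ UTRs of the 8 genes hold 0 matches to bases 2 to 8 of the guide strand of siSox9 and 0 matches to those of siNC. The 823 tested genes with a siSox9 match had a median difference of -0.10 on the log2(FPKM + 1) scale, against -0.01 for the genes without one.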

How the data were processed

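The data were 6 RNA-Seq libraries of mouse primary TECs after H/R, 3 in each siRNA group. The table as deposited by the authors holds FPKM, in which reads are divided by exon length and library size. Per the labels, the processing notes of the submitters name Bowtie2 2.2.3, HISAT2 2.1.0, TopHat2 and the build mm9, but the positions in the table are those of GRCm38, which is used here. Of 30315 genes, 93.3% of the 30246 found in GENCODE M21 have the same position. The counting tool and its strand setting are not given in the sources used here. The control columns name siNC, and the other columns name an siRNA that is not the control, which leaves siSox9.

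Values were transformed to log2(FPKM + 1), and the 12009 genes whose mean reached 1 FPKM were fitted with limma 3.58.1 (moderated variances following the mean level, R 4.3.3), using a Benjamini-Hochberg adjusted p under 0.05 over all of them and no replicate block. The fit was also run on simulated data with fewer changed genes than were called here, which checks the code and not the calls in these data. FPKM was turned back into reads with the exon lengths of GENCODE M21, and 93.3% of values came out whole within 0.02 reads. For 1527 genes whose model differed, Srebf2 and Abcg1 among them, the length was inferred as the smallest that made all 6 values whole, so that their reads are minimum numbers. At this depth 3 reads on 1 kb of exons are 0.117 to 0.126 FPKM. Read numbers cover counting error only.

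The 8 genes, the 7 lists and the cell type markers were chosen with earlier results of these data known, and the motifs after the promoters had been read. The genes named are the 8, Sox9, the 2 largest rises and falls past the threshold without overlap in each list, 14 genes fixed by name for their role in the pathway, and the 3 genes most like Insig1 and Abca1. Some of these genes are not reported here. Other list members called were named after their values were seen, where 5 or fewer were left. Sequences were read from RefSeq and GENCODE. Annotated exon bases were left out of the printed promoters but not out of the motif search. The siRNA seeds were searched with letters from the supplement, and those of siSox9 matched the Sox9 transcript. Alternatives were TPM, quantile normalization, median centring, a pseudocount of 0.1, a minimum of 5 FPKM or none, an unmoderated linear model, a replicate block, leaving out each library, and limma voom with TMM factors on the recovered reads. Python 3.11.15 with numpy 2.4.6, pandas 2.3.3 and matplotlib 3.10.9 was used for the rest.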

Additional observations from a re-analysis of the deposited data

How the results depend on the processing

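Insig1 and Stard4 passed the threshold in all 15 alternatives, and Scap, Insig2 and Abcg1 in none. Abca1 kept its direction but not its call with TPM (-0.27), no filter (-0.28), quantile normalization (-0.23) and the unmoderated model (-0.28), and ranged from -0.33 to -0.22 with 1 library left out. At a minimum of 5 FPKM, Abca1 and Abcg1 were not tested. Srebf2 ranged from 0.055 to 0.116 with 1 library left out. Srebf1 turned to 0.011 with TPM, 0.003 with limma voom and 0.010 with median centring, and ranged from -0.075 to 0.046 with 1 library left out. Mbtps2 turned to 0.009, 0.002, 0.011 and 0.024 with TPM, limma voom, median centring and quantile normalization, and ranged from -0.039 to 0.005. None of these Srebf1 and Mbtps2 values passed.

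Lower genes numbered 1342 of 12009 tested with TPM and 1376 of only 7495 tested at 5 FPKM, beside the 2118 of 12009 given above. With 1 library left out, 2424 to 3654 genes passed, of which 944 to 1565 were higher, the fewest without siSox9 replicate 2. List counts are to be read beside the calls over all genes, which also changed from the 3650 of 12009 given above. These were 2571 of 12009 with TPM, 2700 of 28122 with no filter and 2682 of 12009 with the unmoderated model. They were 4330 of 12004 with limma voom, 3724 of 12009 with median centring and 2704 of 7495 at 5 FPKM. The SREBP transport list had 3 calls with TPM and 4 to 7 with 1 library left out, the fewest without siSox9 replicate 1. The uptake list had 3 with TPM, no filter and the unmoderated model, and 3 to 5 with 1 library left out, the fewest without siSox9 replicate 1 or 3. The sterol transport and storage list had 2 with TPM and 3 to 6 with 1 library left out, the fewest without siNC replicate 2. The LXR list had 0 with TPM, no filter and the unmoderated model, 3 with limma voom, 2 with median centring and at 5 FPKM, and 0 to 2 with 1 library left out, the most without siNC replicate 1 and the fewest without siNC replicate 2. The cause was not tested. For the other named genes, 366 of 417 values kept direction and side of the threshold.

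Same-numbered libraries did not deviate together, with correlations of 0.065, -0.050 and 0.0078 between their deviations from the group means. Whether they shared an animal or culture cannot be told from these values. With the replicate block 3262 genes passed, and the calls of the 8 genes were those of the fit without it, with Insig1 at 0.60 and Abca1 at -0.28. Depth is known least for Abcg1, whose 99 to 136 reads a library are a minimum.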
